A study of Rattus norvegicus with 32 samples.

Results

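The immediate early transcription factors followed here are Egr1, Egr2, Fos, Fosb, Jun, Junb, Ier2, Ier3, Nr4a1 and Klf6, which are 10 genes chosen by name. A probe was taken as belonging to a gene when it was not a control spot and its gene name on the array equalled the symbol. By this rule 9 of the 10 genes had a probe, and Junb had none under that name. These 9 genes held 10 of the 30367 probes of the array, 55 of its 42877 transcript spots, and 9 of its 26583 gene names. Fos was too dim to be tested, which left 8 genes with a test at 3 h and at 6 h.

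The cells were C6, a rat glioma line, grown in DMEM with 10% serum until confluent. The Control group received no drug, and the Ang II group received angiotensin II at 100 nM. The Ang II+Los and Ang II+PD123319 groups received the same Ang II after 30 min with Losartan, an antagonist of the AT1 receptor, or PD123319, an antagonist of the AT2 receptor, each at 10 µM. Each group had 4 replicates at 3 h and 4 at 6 h, with 1 array for each of the 32 samples. The labels do not say whether replicates came from separate cultures. The p-values measure the spread left between these samples after differences between array slides are removed, and that spread may be technical.

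Immediate early genes are switched on within minutes of a stimulus without new protein synthesis, and their transcripts usually decay within a few hours. Serum response factor with its ternary complex partners binds CArG boxes, and CREB family factors bind cyclic AMP response elements (CRE). Angiotensin II, acting on the Gq-coupled AT1 receptor, is a classical inducer of Egr1 and Fos through the MAP kinase cascade. Egr1 and Egr2 are zinc-finger factors that bind GC-rich sites. Fos, Fosb, Jun and Junb are leucine-zipper proteins that pair to form AP-1. Nr4a1 is an orphan nuclear receptor and Klf6 a Krüppel-like zinc-finger factor. Ier2 is a small nuclear protein, and Ier3 is a stress-inducible regulator of cell survival and ERK signalling rather than a DNA-binding factor.

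The promoters of Egr1, Egr2, Ier2 and Nr4a1 are shown because they carry the elements through which this family is known to respond. The RefSeq promoter table for build GRCr8 held 7 of the 10 genes, and the 250 bases before the start are printed in the direction of the gene. Capitals mark matches on either strand to a CArG box, to the CRE core TGACG, to the full CRE TGACGTCA, to the AP-1 site TGANTCA or to the EGR site GCGNGGGCG. The full CRE contains the core on each strand. Egr1 lies at chr18:26736828-26737077 on the plus strand, Egr2 at chr20:21054442-21054691 on the minus strand, Ier2 at chr19:40399123-40399372 on the plus strand, and Nr4a1 at chr7:134259888-134260137 on the plus strand.
Egr1: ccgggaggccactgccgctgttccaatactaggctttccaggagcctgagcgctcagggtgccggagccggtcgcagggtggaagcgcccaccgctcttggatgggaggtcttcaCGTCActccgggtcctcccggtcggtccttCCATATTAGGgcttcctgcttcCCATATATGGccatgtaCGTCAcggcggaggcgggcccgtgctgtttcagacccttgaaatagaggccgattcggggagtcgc
Egr2: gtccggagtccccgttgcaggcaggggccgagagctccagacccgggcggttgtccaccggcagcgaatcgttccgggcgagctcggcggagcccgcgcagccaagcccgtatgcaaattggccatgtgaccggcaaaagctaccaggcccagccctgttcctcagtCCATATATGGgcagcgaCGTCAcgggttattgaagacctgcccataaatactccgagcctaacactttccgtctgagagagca
Ier2: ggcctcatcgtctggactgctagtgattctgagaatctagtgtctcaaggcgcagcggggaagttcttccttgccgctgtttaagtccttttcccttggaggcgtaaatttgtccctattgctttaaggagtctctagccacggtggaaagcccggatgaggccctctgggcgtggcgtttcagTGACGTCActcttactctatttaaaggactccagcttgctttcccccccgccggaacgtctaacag
Nr4a1: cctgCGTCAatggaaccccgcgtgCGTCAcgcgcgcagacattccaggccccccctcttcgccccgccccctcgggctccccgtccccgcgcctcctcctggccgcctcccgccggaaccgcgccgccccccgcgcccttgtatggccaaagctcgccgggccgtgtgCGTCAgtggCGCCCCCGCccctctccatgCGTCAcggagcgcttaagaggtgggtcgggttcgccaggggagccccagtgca

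The Egr1 window held 2 CArG boxes, which began 105 and 83 bases before the start. Of all 33469 promoters of the table, 1.5% held a CArG box and 0.0209% held 2 or more. Egr2 also had a CArG box that began 83 bases before the start, and in Egr1 and Egr2 alike a CRE core began 66 bases before it. A CRE core was held by 18.2% of all promoters, and 2 or more, as in Egr1, by 3.98%. Ier2 held a full CRE beginning 66 bases before the start, as 1.59% of all promoters did. In Nr4a1 there were 4 CRE cores, against 0.173% of promoters with 4 or more, and an EGR site, which 4.29% of promoters held. Klf6 held a CArG box that began 201 bases before its start, Junb held a CRE core, and Fosb had no match to any of these motifs in its window. The AP-1 site was in none of the 7 windows and in 6.34% of all promoters. These matches are a description of letters and not of binding.

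The unit of all values below is the normalized log2 signal of a probe, averaged over the spots and probes of a gene. The arrays of each time interval were normalized separately and had been read with different settings of the scanner software, so levels were not compared between 3 h and 6 h, nor between genes. The replicate number is that of the slide, and each slide held 1 array per group, always in the same position, so that position and treatment cannot be told apart. The share of spots that the scanner software marked as well above background ran from 55.9% to 64.7% over the 3 h arrays and from 64.2% to 79.8% over those of 6 h. Precision is limited by the number of arrays. Among glial markers, S100b, Vim, Nes, Cnp and Cspg4 were well above background on 16 of 16 arrays at each time, whereas Gfap, the defining astrocyte filament, was so on 0 of 16 arrays at 3 h and on 2 of 16 at 6 h. Markers of other cell types were mixed. The microglial markers Aif1, Itgam and Cx3cr1 and the neuronal marker Snap25 were well above background on 16 of 16 arrays at each time, Csf1r and the endothelial Cdh5 on 12 at 3 h and 16 at 6 h, the neuronal Gad1 on 14 and 16, Kdr on 6 and 11, and Syp on 1 and 5. Ptprc, Pecam1, Tek, Syt1 and Slc17a7 were so on 0 arrays.

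Arrays of the 3 h slides 1 and 2 stood apart from the rest. For the 693 genes with 2 probes that lie 500 to 5000 bases apart, the slide-centred difference of the upstream minus the downstream probe had an SD over genes of 0.54 in Ang II+Los replicate 1, 0.82 in Ang II+Los replicate 2 and 0.61 in Control replicate 2. Ang II replicate 2 and Ang II+PD123319 replicate 2 gave 0.48 and 0.39, and slide-centring carries part of a deviating array over to its whole slide. The other 3 h arrays lay between 0.14 and 0.35. For the 3 h calls it is therefore also said which were lost without slides 1 and 2, which are the slides of scan 1, while slides 3 and 4 belong to scan 2. At 6 h, replicates 1 to 3 were read in scan 3 and replicate 4 in scan 4, and pair values are given for each replicate.

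Ang II x Control, which asks what Ang II changed, gave higher signals of Egr1 and Ier3 at 6 h. A gene was counted as changed at an unadjusted p under 0.05 in limma with a fold change above 1.2 or below 0.8. At 6 h, 2 of the 8 genes passed these limits, both higher, against 11.5% of all 16446 genes tested. Of the 16446 genes kept, 0 had an adjusted p under 0.05 in limma, although 3533 genes (21.5%) had an unadjusted p under 0.05, as 2 of the 8 did, and the methods' paired test of each gene likewise gave 0 after adjustment. That number was 69 when a probe had to be well above background on each of the 16 arrays, 10 from the deposited values and 227 without replicate 3, with 0 of the 8 genes among them.

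Egr1 had a signal of 7.57, 9.33, 8.33 and 7.52 in Control replicates 1 to 4 at 6 h. The Ang II replicates gave 7.73, 10.35, 8.27 and 8.28. The groups overlapped, and replicate 2 was the highest in each of them. The means were 8.19 ± 0.85 (SD, n = 4) and 8.66 ± 1.16 (SD, n = 4). Within slides the difference was 0.16, 1.02, -0.05 and 0.76 for replicates 1 to 4, so that slides 2 and 4 held most of it. The log2 fold change was 0.47 with a standard error (SE) of 0.15 and a 95% interval from 0.13 to 0.81 (limma, adjusted p = 0.136). The downstream probe of Egr1, at chr18:27347173-27347232 on rn4 and printed 10 times, gave 0.48. The upstream probe, at chr18:27346058-27346117 and printed in 1 spot, gave 0.46.

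Ier3 had 10.84, 10.16, 10.87 and 9.90 in Control and 10.98, 11.01, 10.88 and 10.30 in Ang II at 6 h. It was higher in 4 of 4 pairs, by 0.14, 0.84, 0.01 and 0.40, as 1 of the 8 genes with the same direction in all pairs, against 26.2% of all genes, yet the groups overlapped, as slide 4 was low in each of them. The log2 fold change was 0.35 with an SE of 0.12 and a 95% interval from 0.08 to 0.61 (limma, adjusted p = 0.147). As for Egr1, pairs 2 and 4 were the largest. Without replicate 2, the values were 0.29 for Egr1 and 0.18 for Ier3, and without replicate 4 they were 0.38 and 0.33. Neither gene passed in these fits, and 0 of the 8 genes passed without replicate 2, without replicate 4, without the slide as a block, or in the paired test.

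The remaining genes did not pass at 6 h. Egr2 gave 6.44, 6.34, 5.64 and 5.82 in Control and 6.30, 6.79, 5.79 and 6.40 in Ang II, and its log2 fold change was 0.26 (SE 0.14). Ier2 gave 0.16 (SE 0.11), with pair 2 at 0.53 and the other pairs between -0.06 and 0.17. Klf6 was at -0.20 (SE 0.10) and had its lowest pairs, -0.41 and -0.35, on slides 2 and 4, where Egr1 and Ier3 had their highest. Nr4a1 had -0.00 (SE 0.06), with a 95% interval from -0.14 to 0.13. Jun had 0.04 (SE 0.19) and Fosb -0.38 (SE 0.35), and the pairs of Fosb ran from -1.24 to 0.53. The median over the 8 genes was 0.10, and that over all genes tested was -0.01.

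**Figure D1:**
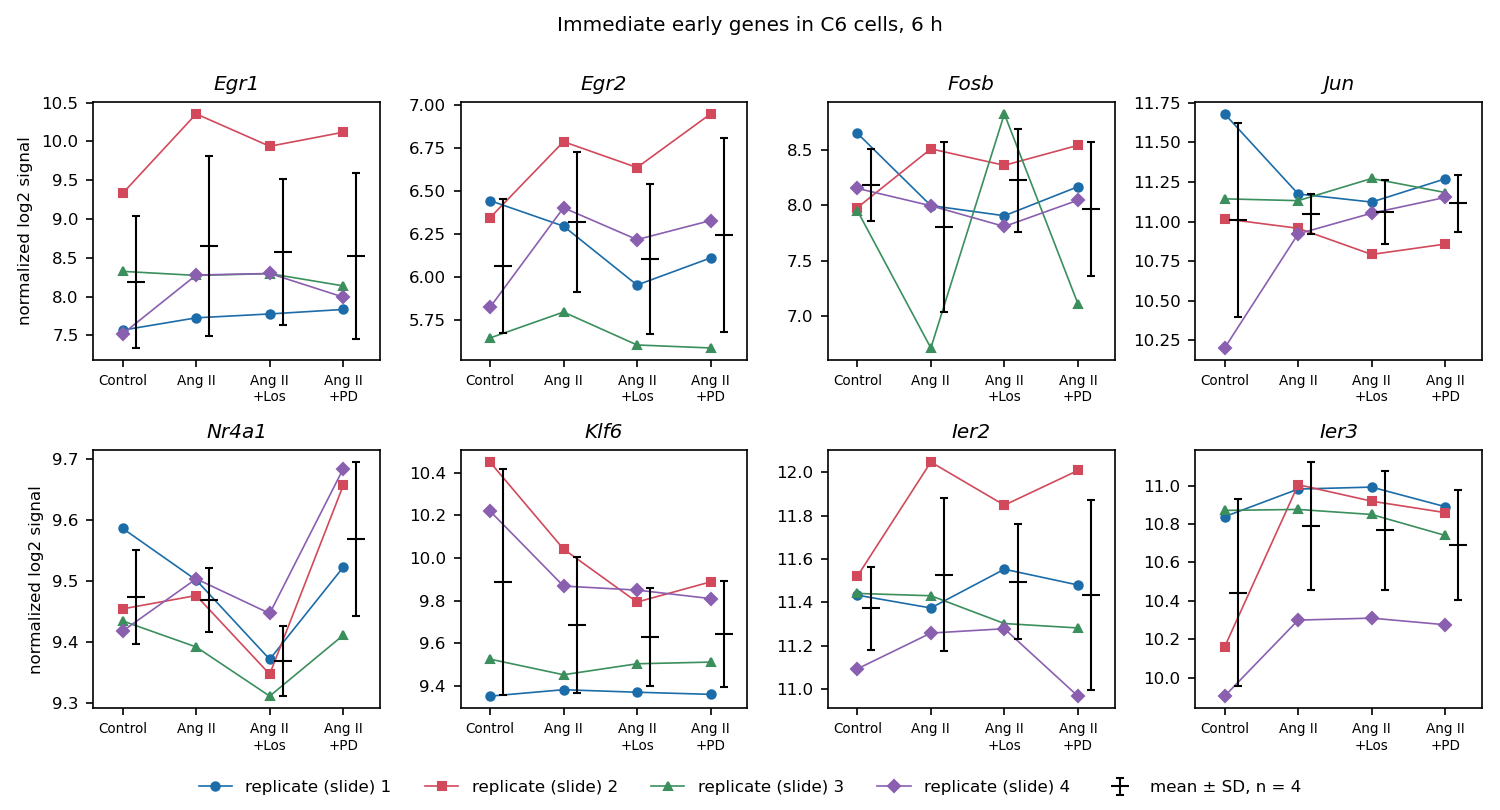
Normalized log2 signal of the 8 tested genes at 6 h in each group (y axes differ and do not start at 0). Coloured lines join the 4 arrays of a slide and black bars give the mean ± SD of 4 replicates; Egr1 lies between 7.52 and 10.35 with slide 2 highest throughout, and Ang II and Control overlap for every gene.

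Fos, the AP-1 partner of Jun, had a single-spot probe that was well above background on 2 of 16 arrays at 3 h and on 8 of 16 at 6 h. At 6 h it was so on 1 of 4 Control, 2 of 4 Ang II, 3 of 4 Ang II+Los and 2 of 4 Ang II+PD123319 arrays. The signals at 6 h were 3.61, 3.17, 1.48 and 2.52 in Control and 3.74, 4.57, 3.02 and 3.14 in Ang II. It did not pass the filter on dim probes and was left out of the comparisons. Fosb was well above background on 15 of 16 arrays at 3 h, the upstream Egr1 probe on 15 of 16, and the other probes of the tested genes on 16 of 16.

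The antagonist comparisons ask which of these signals differed when the AT1 or AT2 receptor was blocked before Ang II. They use the same Ang II arrays as Ang II x Control, so the comparisons are not independent of each other. At 6 h, 0 of the 8 genes passed in Ang II+Los x Ang II, where 0.9% of all genes did, and 0 of 8 in Ang II+PD123319 x Ang II, where 3.79% did. At an unadjusted p under 0.05, 0 of the 8 genes passed in each of them, against 1.99% and 6.37% of all genes in limma. In the paired test, Egr2 and Nr4a1 with Losartan and Ier3 with PD123319 did have an unadjusted p under 0.05. Their folds were inside the limits, and 0 were left after adjustment. In no comparison at 3 h or 6 h did the groups of any of the 8 genes lack overlap. Over all genes, such gaps were seen for 1.3%, 0.785% and 0.367% at 3 h and for 1.82%, 0.255% and 0.602% at 6 h, in the order Ang II, Losartan and PD123319.

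Egr1 had 7.78, 9.94, 8.30 and 8.30 in Ang II+Los and 7.84, 10.12, 8.14 and 7.99 in Ang II+PD123319 at 6 h. Its log2 fold change against Ang II was -0.08 with Losartan, with a 95% interval from -0.42 to 0.26, and -0.14 with PD123319, with an interval from -0.48 to 0.20. Ier3 was at -0.02 and -0.10, with intervals from -0.29 to 0.24 and from -0.36 to 0.17. For Ier3 the PD123319 array was below the Ang II array in 4 of 4 pairs. The rise with Ang II has an interval of its own and rests on the same Ang II arrays as these changes. Whether either antagonist took away the rise was not tested.

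Nr4a1 had the smallest spread of the 8 genes at 6 h. Its signal was 9.50, 9.48, 9.39 and 9.50 in Ang II, 9.37, 9.35, 9.31 and 9.45 in Ang II+Los, and 9.52, 9.66, 9.41 and 9.68 in Ang II+PD123319. It was lower with Losartan in 4 of 4 pairs, with a log2 fold change of -0.10 (SE 0.06), and higher with PD123319 in 4 of 4 pairs, with 0.10 (SE 0.06). Neither passed in limma at an unadjusted p under 0.05. Set directly against each other at the matched dose of 10 µM, the PD123319 group was above the Losartan group by 0.20 (SE 0.06, 95% interval from 0.06 to 0.34), with pairs of 0.15, 0.31, 0.10 and 0.24. The unadjusted p was under 0.05, the adjusted p was 0.439 in limma, and the fold was under the limit of 1.2. This direct comparison was added after the values had been seen, and in it 8.07% of all genes had an unadjusted p under 0.05 and 4.74% passed the limits on p and fold, while 0 genes passed after adjustment in limma. The other 7 genes did not reach an unadjusted p under 0.05 there. At 3 h the PD123319 group was above the Losartan group by 0.12 (SE 0.13) for Nr4a1, with pairs of 0.24, -0.12, 0.18 and 0.17. The 8 genes did not reach an unadjusted p under 0.05 in limma at 3 h, where 14.6% of all genes did.

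Egr2 was lower with Losartan in 4 of 4 pairs at 6 h, with values of 5.95, 6.64, 5.60 and 6.22 and a log2 fold change of -0.22 (SE 0.14). Fosb was higher with PD123319 in 4 of 4 pairs, with 0.16 (SE 0.35). Of all genes, 13.1% kept the same direction in 4 pairs with Losartan and 21.9% with PD123319, and of the 8 genes 2 and 3 did. Fosb with Losartan rested on slide 3, where the Ang II array had 6.71 and the Ang II+Los array 8.82. That pair was 2.11 and the other pairs lay between -0.19 and -0.09. Klf6, Jun and Ier2 had log2 fold changes between -0.09 and 0.07 in the antagonist comparisons at 6 h.

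**Figure D2:**
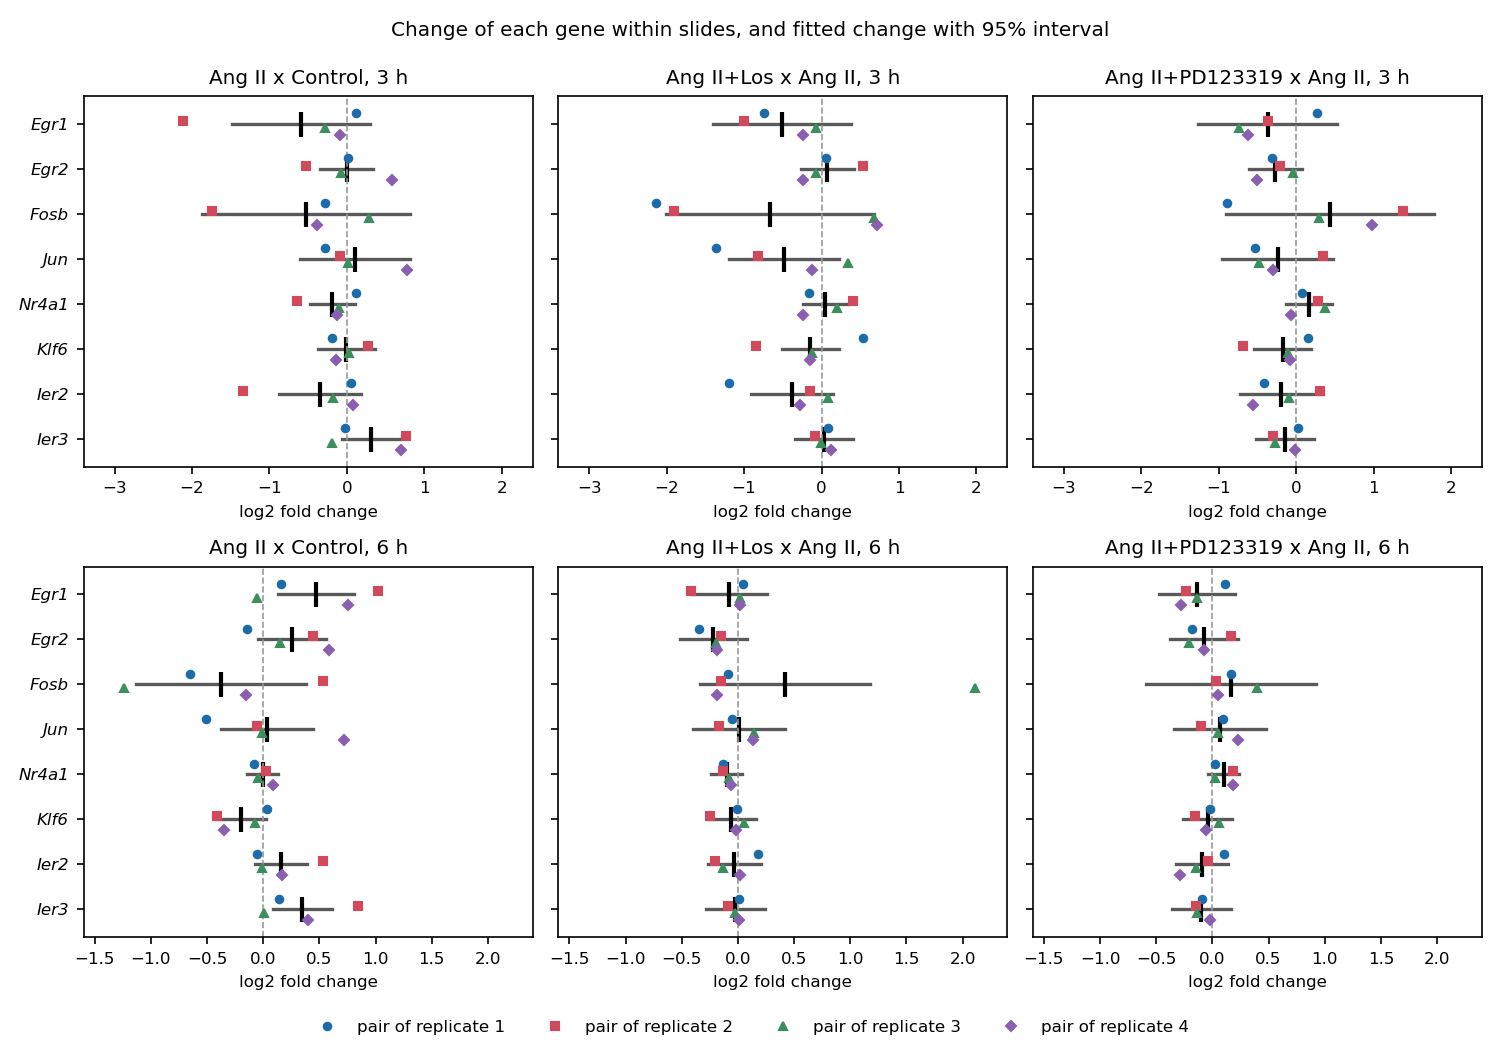
Log2 fold change of the 8 genes in each comparison (columns) at 3 h and 6 h (rows), where coloured points are the 4 pairs within slides, black ticks the fitted change and grey bars its 95% interval from limma. At 6 h only the bars of Egr1 and Ier3 in Ang II x Control lie off 0, and the bars at 3 h are wider for each gene.

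At 3 h, 0 of the 8 genes passed in any comparison. Of all 13630 genes, 11% passed for Ang II against Control, 10.1% with Losartan and 2.64% with PD123319. At an unadjusted p under 0.05 alone, 0 of the 8 genes passed, where 12.7%, 10.9% and 2.99% of all genes did in limma. The median SE of the 8 genes was 0.21 at 3 h and 0.13 at 6 h, against 0.16 and 0.10 over all genes.

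Egr1 at 3 h had 7.60, 9.14, 6.39 and 7.69 in Control, 7.72, 7.02, 6.12 and 7.61 in Ang II, 6.97, 6.02, 6.05 and 7.37 in Ang II+Los, and 7.98, 6.66, 5.37 and 6.98 in Ang II+PD123319. Control replicate 2 stood above every other array of the time. In Ang II x Control the log2 fold change was -0.59 (SE 0.41), and slide 2 had the largest pair, at -2.12. It was -0.51 (SE 0.41) with Losartan, lower in 4 of 4 pairs, and -0.37 (SE 0.41) with PD123319, lower in 3 of 4. On slides 3 and 4 alone, Ang II+PD123319 x Ang II gave -0.70 for Egr1 (limma, adjusted p = 0.889), and Ang II x Control gave -0.16. This choice of slides was made after seeing the data. At 3 h the same direction in 4 pairs was kept by 0 of the 8 genes in Ang II x Control, by 1 with Losartan and by 1 with PD123319, where 24.3%, 15.5% and 13.9% of all genes kept it.

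The probes of Egr1 parted on 2 arrays. The downstream probe had 8.67 and 8.59 in Ang II+Los replicates 1 and 2. On the same arrays the upstream probe had 5.27 and 3.45, and the 3.45 was not well above background. The slide-centred upstream minus downstream difference of Egr1 was -1.51 and -2.57 on these arrays, where the median over 693 genes was -0.07 and -0.42. On the other 3 h arrays it lay between -0.20 and 1.15 for Egr1. The 1.15 was on slide 2, where centring shifts the other arrays against the low one. The 3 h change with Losartan was accordingly 0.13 (SE 0.35) by the downstream probe and -1.15 (SE 0.60) by the upstream probe, so that the sign for Egr1 turned with the probe. These are the arrays on which the paired probes of many genes spread widely, and the part of that spread in the Egr1 value was not tested.

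**Figure D3:**
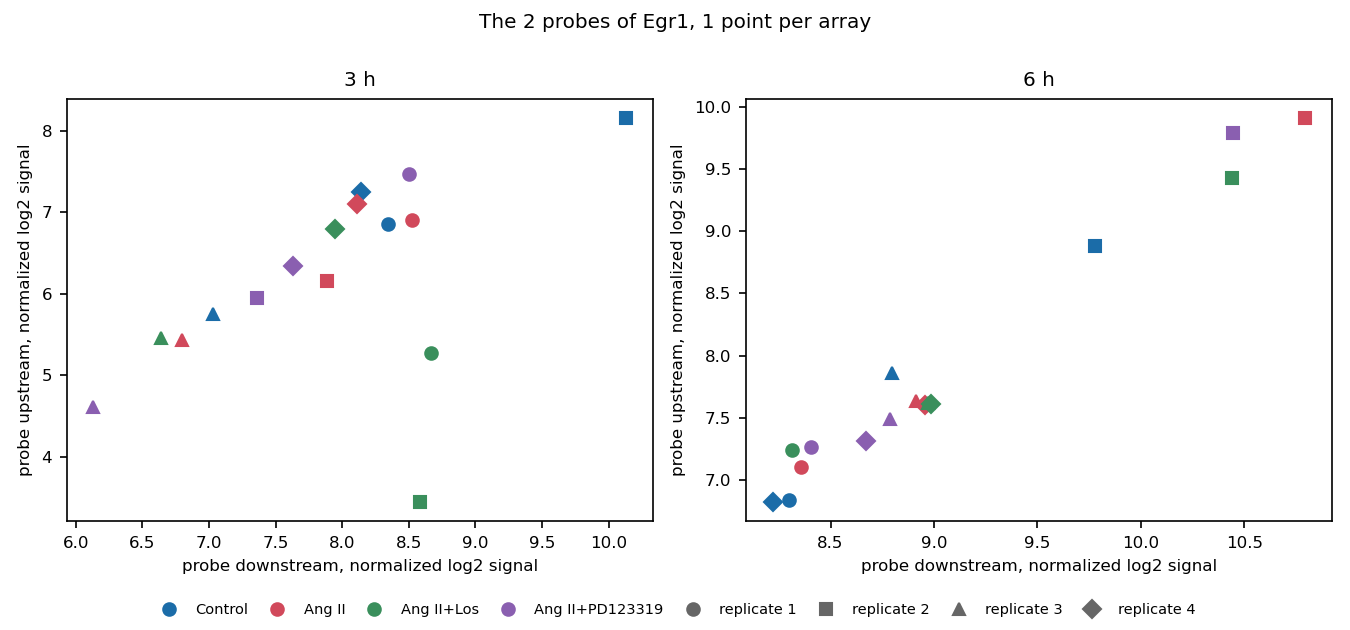
Normalized log2 signal of the upstream probe of Egr1 against its downstream probe, with 1 point per array, coloured by group and shaped by replicate. At 3 h Ang II+Los replicates 1 and 2, at 5.27 and 3.45 on the y axis, lie below arrays with a similar downstream signal. The 3.45 was not well above background. Ang II+PD123319 replicate 3, at 4.62, is low on both axes. At 6 h all 16 arrays run together.

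Fosb showed the same arrays. It had 5.86 and 3.98 in Ang II+Los replicates 1 and 2 and 8.60 and 8.48 in replicates 3 and 4. The 3.98 was not well above background. The pairs against Ang II were -2.13 and -1.91 on slides 1 and 2 and 0.67 and 0.72 on slides 3 and 4. Over 4 slides the log2 fold change was -0.66 (SE 0.62), and on slides 3 and 4 it was 0.69. Jun, the AP-1 partner of the Fos proteins, likewise had -1.36 and -0.82 on slides 1 and 2 and 0.35 and -0.12 on slides 3 and 4, with -0.49 (SE 0.33) over all of them. Each is read by a single-spot probe.

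Ier2, which is printed 10 times, had 11.18, 11.24, 11.07 and 11.00 in Control at 3 h. It had 11.23, 9.90, 10.90 and 11.07 in Ang II and 10.04, 9.75, 10.97 and 10.80 in Ang II+Los. The low values were again on slides 1 and 2, and the log2 fold changes were -0.35 (SE 0.24) in Ang II x Control and -0.38 (SE 0.24) in Ang II+Los x Ang II. Ier3 had 0.31 (SE 0.17) in Ang II x Control at 3 h, with 10.62, 9.77, 10.20 and 9.68 in Control and 10.60, 10.52, 10.01 and 10.38 in Ang II. Its pairs on slides 2 and 4 were 0.76 and 0.69 and those on slides 1 and 3 were -0.02 and -0.19. Egr2 was lower with PD123319 in 4 of 4 pairs at 3 h, with -0.27 (SE 0.16), and it had -0.00 in Ang II x Control. Nr4a1 and Klf6 lay between -0.19 and 0.17 in the 3 h comparisons.

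**Figure D4:**
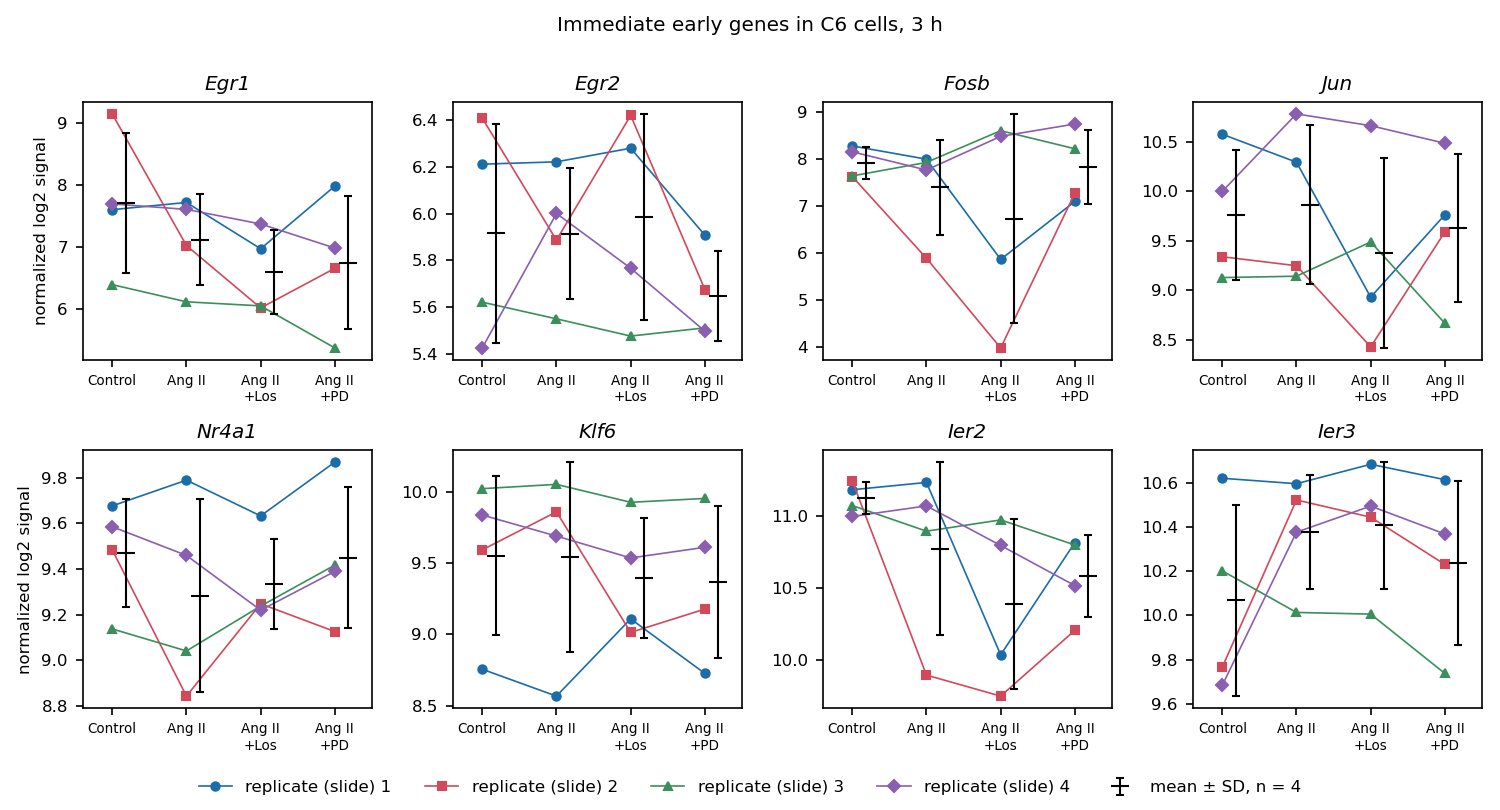
Normalized log2 signal of the 8 tested genes at 3 h, drawn as for 6 h with 4 arrays joined per slide and the mean ± SD of 4 replicates (y axes differ and do not start at 0). Fosb falls to 5.86 and 3.98 in Ang II+Los on slides 1 and 2 and stays at 8.60 and 8.48 on slides 3 and 4. The 3.98 was not well above background.

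The change at 6 h was set against that at 3 h in a single fit of the 32 arrays. Egr1 in Ang II x Control had a difference of 1.06 (SE 0.46), with an unadjusted p under 0.05 and an adjusted p of 0.675 in limma. The other 7 genes did not reach an unadjusted p under 0.05 in this comparison, where 7.18% of all genes had a p under 0.05. With Losartan and PD123319, 0 of the 8 genes had a p under 0.05. After adjustment in limma 0 genes differed between the times in any comparison.

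The slide accounted for more of the spread than the group did for 7 of the 8 genes at 6 h. For Egr1 at 6 h the slide held 92.0% of the sum of squares and the group 4.03%. Nr4a1 was the exception, with 23.4% for the slide and 48.7% for the group. Over all genes the medians at 6 h were 65.2% and 9.92%. At 3 h the slide held 30.2% for Ier2 and 82.4% for Klf6, which were the lowest and the highest of the 8, and Ier2 was the exception there with 32.8% for the group. The repeated spots of Egr1, Egr2, Ier2, Ier3 and Nr4a1 had a median SD within an array of 0.11 to 0.14 at 3 h and 0.05 to 0.09 at 6 h.

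After each slide's mean was taken away, the 8 genes did not vary as a block. The description that follows is over 16 arrays per time, which share slides, scans and normalization. At 6 h Egr1 ran with Ier3 (Pearson's r = 0.91, Spearman's rho = 0.71) and with Ier2 (r = 0.81, rho = 0.87). Leaving out the 2 arrays farthest from the median of Egr1 gave r = 0.75 and 0.78. Klf6 ran against Ier3 (r = -0.88, rho = -0.72), and that r was -0.47 without the 2 farthest arrays of Ier3. Klf6 against Egr1 had r = -0.74, which rests on 2 arrays, as it was -0.07 without them. At 3 h Egr1 ran with Ier2 (r = 0.84, rho = 0.81, and 0.67 without the 2 farthest arrays), whereas Egr1 and Ier3 had r = -0.49. Fosb and Jun had r = 0.76 at 3 h and 0.14 at 6 h. The median r over the 28 pairs of genes was 0.11 at 3 h and 0.13 at 6 h.

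**Figure D5:**
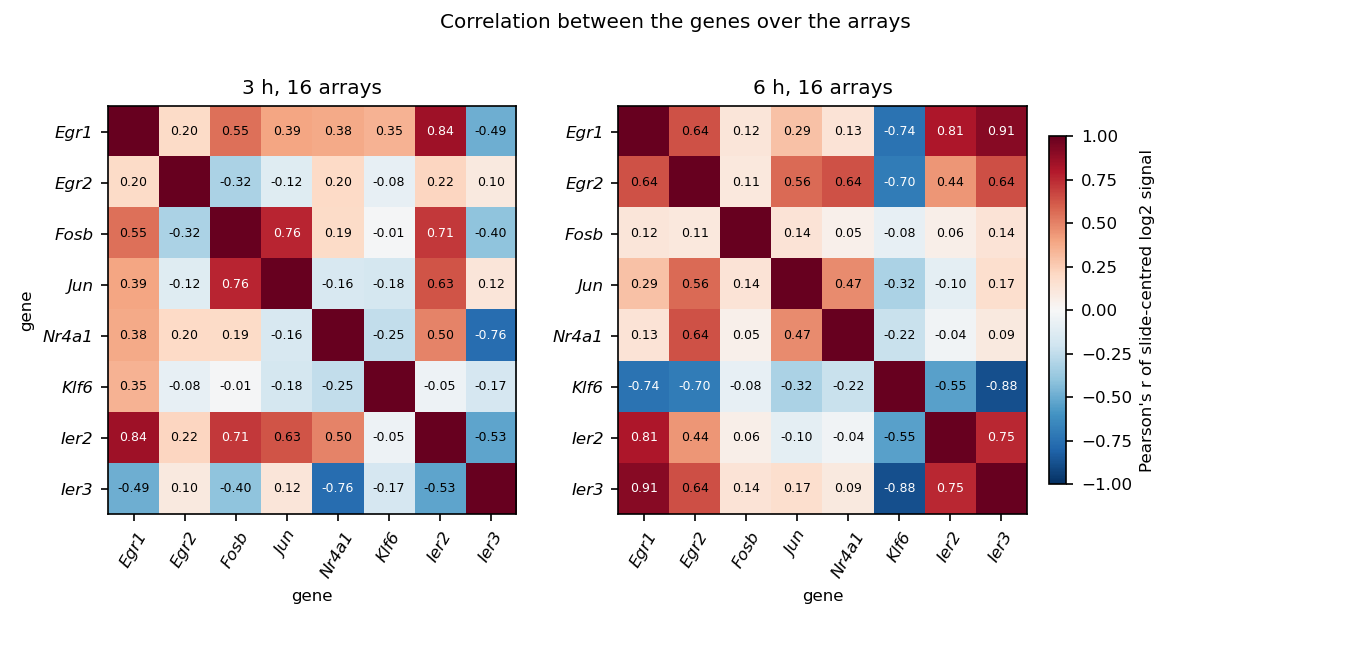
Pearson's r between the slide-centred log2 signals of the 8 genes over the 16 arrays of 3 h (left) and 6 h (right), with the value in each cell off the diagonal and red for positive r. The cells that pair Egr1, Ier2 and Ier3 with each other are red at 6 h (r between 0.75 and 0.91), while Egr1 and Ier3 have r = -0.49 at 3 h.

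The genes with the slide-centred pattern most like that of Egr1, among genes with a symbol and a signal well above background on each of the 16 arrays, were Stk40, Atf6, Vegfa, Sssca1 and Rbm15b at 3 h, with r between 0.90 and 0.93 over 7806 candidates. At 6 h they included Osbpl3, Crip2, Cxxc5 and Spr, with r between 0.96 and 0.97 over 9520 candidates, and none of these 4 was among those named at 3 h. The Egr1 pattern at 3 h includes Ang II+Los replicates 1 and 2, where its probes parted, and Control replicate 2, its highest array. The r values of these lists were not recalculated without any array, so what they rest on was not tested. Fos was not kept at either time, so no such list was made for it.

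Other genes of the same response were read from lists of related factors, other immediate early genes, upstream kinases and factors, partners and inhibitors, and AP-1 and EGR targets. In Ang II x Control at 6 h, where 6.78% of all genes passed as higher and 4.68% as lower, 3 of 11 tested related transcription factors, 4 of 14 other immediate early genes, 2 of 6 partners and inhibitors and 2 of 13 targets passed, all of them higher. Upstream, 0 of 13 genes passed. The list medians were -0.06, 0.22, 0.11, -0.04 and 0.07, in the order related factors, other immediate early genes, partners, targets and upstream genes.

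Maff, a small Maf protein that pairs with AP-1 family members, was higher in 4 of 4 pairs at 6 h, and its log2 fold change was 0.65 (SE 0.16). Rhob, a small GTPase, was at 0.59 (SE 0.10), with pairs between 0.48 and 0.77. Hbegf, a ligand of the EGF receptor, was at 0.45, Phlda1 at 0.44 and Dusp1, a phosphatase of MAP kinases, at 0.34. Among the partners, Nab1, a corepressor that binds Egr proteins, was at 0.55 (SE 0.10) and Crem, a CREB family factor, at 0.35 (SE 0.07), and each was higher in 4 of 4 pairs. Rhob and Nab1 had an adjusted p of 0.0575 in limma. Csrnp1, Klf10, Tgfb1 and Plaur passed as well, between 0.33 and 0.42, but not in the same direction in all pairs, and they are named after their values were seen. Without the slide as a block, Rhob alone of the 7 genes with 4 of 4 pairs still passed, but from the deposited values it was at 0.079 and did not. With the normexp background, Maff at 0.24, Nab1 at 0.13, Crem at 0.15 and Dusp1 at 0.0018 did not pass. In the paired test, Maff, Hbegf, Dusp1, Csrnp1, Klf10, Tgfb1 and Plaur did not pass. Hbegf also did not pass without replicate 2, nor Dusp1 without replicate 1 or without replicate 3. The glial marker Cnp passed as higher in the same comparison, at 0.43 in 4 of 4 pairs, as 1 of 5 tested glial markers, and its part in these results was not tested.

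With PD123319 at 6 h, Ctgf and Hbegf passed as lower among 14 other immediate early genes, against 1.22% of all genes. Ctgf, a matricellular protein, was at -0.45 and Hbegf at -0.43, each lower in 4 of 4 pairs. At 3 h Ctgf at -0.66 and Hbegf at -0.59 passed as lower with PD123319 in 4 of 4 pairs as well, as did the factors Csrnp1 at -0.52 and Fosl1, an AP-1 subunit, at -0.41, where 0.624% of all genes did. Mmp3 passed too, at -0.38, without the same direction in all pairs. Without slides 1 and 2, Csrnp1 and Mmp3 (-0.14) did not pass. Csrnp1 also did not pass without replicate 1, 2, 3 or 4, nor with no filter on dim probes, at -0.24. Hbegf at 6 h did not pass without replicate 4, at -0.33. Without the slide as a block, Ctgf and Hbegf did not pass at either time, nor did Fosl1 and Mmp3 at 3 h, and in the paired test Hbegf, Fosl1 and Mmp3 did not pass at 3 h. Among cell type markers, the glial S100b at 0.28 and the microglial Aif1 at 0.39 passed as higher with PD123319 at 6 h, and their part was not tested. None of these genes had an adjusted p under 0.05, and these comparisons share the Ang II arrays with Ang II x Control, where Hbegf passed as higher at 6 h.

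With Losartan, 0 genes of these 5 lists passed at 6 h. At 3 h Jdp2, a repressor of AP-1, was at -1.79 (SE 0.73), with pairs of -3.14 and -3.34 on slides 1 and 2 and -0.25 and -0.44 on slides 3 and 4. Rhob was at -0.75, where 5.41% of all genes passed as lower, and on slides 3 and 4 alone it was -0.10. Neither passed without slides 1 and 2. Hbegf at -0.39 and Atf2 at -0.49 passed without the same direction in all pairs, and without slides 1 and 2 Atf2 was at -0.07 and did not pass. Hbegf did not pass without the slide as a block, in the paired test or with the normexp background, at -0.18. Nor did Hbegf pass without replicate 2, at -0.23, without replicate 3 or without replicate 4. The glial marker Cnp passed as lower in this comparison, at -1.14, with pairs of -1.41 and -3.05 on slides 1 and 2 and 0.03 and -0.13 on slides 3 and 4. Upstream, 4 of 13 genes passed as higher for Ang II x Control at 3 h, where 5.04% of all genes did. Of these, Atf1 at 0.32 and Elk4, a ternary complex factor, at 0.28 were higher in 4 of 4 pairs, while Srf at 0.58 and Rps6ka3 at 0.50 were not. Without slides 1 and 2 Atf1 was at 0.08 and Rps6ka3 at 0.14, and of the 4 genes Elk4 alone still passed. Atf1, Rps6ka3 and Srf did not pass without replicate 2 either, and from the deposited values Elk4 turned to -0.51 and Rps6ka3 to -0.04. Jund, an AP-1 subunit, was at 0.29 and the growth factor gene Pdgfa at 0.33, each higher in 4 of 4 pairs, and the kinase gene Plk3 was lower in 4 of 4, at -0.39. Myc at -0.60, Vegfa at -0.59 and Mmp13 at -0.40 passed as lower, as 5.99% of all genes did, and Csrnp1 at 0.49 and Plaur at 0.70 as higher, none in the same direction in all pairs. Of these 8 genes, Vegfa alone still passed without slides 1 and 2. However, Vegfa did not pass without the slide as a block, in the paired test, with its dimmest probe or from the deposited values, at -0.40. Nor did it pass without replicate 2, without replicate 3 or without replicate 4. The microglial marker Cx3cr1 passed as lower at 3 h, at -1.11 in 4 of 4 pairs, and the other 2 tested markers of that list did not pass. Its part in these results was not tested.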

How the data were processed

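Expression was measured on 32 single-dye Agilent rat arrays. Per the file headers, Agilent Feature Extraction 9.5.3.1 had subtracted the background and written a processed intensity per spot, and positions are on rn4. The authors deposited the log2 of that intensity per probe without scaling between arrays. For single-spot probes it matched the scanner signal in 100% of 561803 values (within 1e-04), and probes printed in more spots were not compared. Over all probes 38.2% of the deposited values were blank. These values served as an alternative.

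Here, outlier spots were left out, dim spots at 3 h took the error of their signal in place of the signal, and spots of a probe were averaged as log2 values. The 16 arrays of each time were normalized by cyclic loess (span 0.7, 3 iterations). A probe was kept if some group had it well above background on each of its 4 arrays, and the kept probes were averaged per gene. This left 13630 genes at 3 h and 16446 at 6 h. Each time was fitted with limma 3.58.1 (R 4.3.3), with the slide as a block and Benjamini-Hochberg adjustment over all genes kept. The script was tested on simulated data. Figures were drawn with Python 3.11.15 and matplotlib 3.10.9.

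Replicate numbers are those of the slides, and deviations of same-numbered arrays correlated at 0.15 to 0.92 at 3 h and at 0.55 to 0.83 at 6 h, so the block is part of the fit. The genes and lists were chosen with earlier results of these data known. Named are the 10 genes, up to 4 genes per list and comparison that passed in the same direction in 4 pairs, by size of change, and the 5 genes most correlated with Egr1, apart from some that are not reported here; others are named as chosen after their values were seen. Of the list names, Junb, Cyr61, Mkl2 and Rbfox3 were not found and Sik1 was read as Snf1lk. For the arrays the study's methods name t-tests and do not mention pairing. Alternatives tried were no block, a t-test of each gene paired by slide, 75th percentile scaling, quantile normalization and the normexp background (offset 50). Others were no filter and a filter for all 16 arrays, the brightest and the dimmest probe, the deposited values, each replicate left out, and 3 h slides 1 and 2 left out. The dimmest probe and the last of these were added after seeing the data, and the study's qPCR was not analysed here.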

Additional observations from a re-analysis of the deposited data

Results flagged for a closer look

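Of 64 groups of 4 values for the 8 genes, 3 held an array far from the other 3, where chance marks about 1 in 20. Fosb in Ang II replicate 2 at 3 h was at 5.89, with the nearest array at 7.76, and its gap was 0.891 of the group's range. Nr4a1 in Ang II+Los replicate 1 at 3 h was at 9.63 with the nearest at 9.25, a gap of 0.932 of the range. Egr1 in Ang II+PD123319 replicate 2 at 6 h was at 10.12 with the nearest at 8.14, a gap of 0.867 of the range, and slide 2 was also the highest for Egr1 in the other groups at 6 h.

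Fos lies outside the comparisons because of its dim probe. With no filter on dim probes, its log2 fold change in Ang II x Control at 6 h was 0.925, with a higher signal in 4 of 4 pairs (limma, adjusted p = 0.244). The scanner marked the probe as well above background in 1 of 4 Control and 2 of 4 Ang II arrays, and the lowest Control value, 1.48 in replicate 3, held part of this difference. With replicate 3 left out the value was 0.68 (adjusted p = 0.191 in limma).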

How the results depend on the processing

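Of 87 recalculated counts of how many of the genes passed, 79 stayed within 1.5 times the main count. In Ang II x Control at 6 h the count was 0 without the replicate block and 0 in the paired test, against 2, and 0 to 3 with a replicate left out (0 without replicate 2 or 4, 3 without replicate 1, where Egr2 joined at 0.39, and 3 without replicate 3, where Fos was among 9 genes tested and joined at 0.68). With no filter on dim probes it was also 3 of 9, with Fos at 0.92. At 3 h it was 0 to 1 with a replicate left out in Ang II x Control (Ier3 at 0.47 without replicate 3) and in Ang II+Los x Ang II (Klf6 at -0.38 without replicate 1). Without 3 h slides 1 and 2, chosen after seeing the data, 1 gene passed with Losartan (Fosb at 0.69) and 2 with PD123319 (Egr1 at -0.70 and Fosb at 0.64). No other setting moved a count for these genes. In the settings run for the difference between the times, which do not include the omission of slides 1 and 2, 0 of the genes differed after adjustment. The cause was not tested.

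Signs turned only for values that had not passed, apart from the list genes Elk4 at -0.51 and Rps6ka3 at -0.042, both from the deposited values at 3 h. In Ang II x Control at 3 h, normexp gave 0.018 for Egr2 and 0.076 for Klf6, and leaving out a replicate gave -0.19 to 0.17 for Egr2, -0.10 to 0.059 for Klf6 and -0.12 to 0.24 for Jun. At 6 h Nr4a1 was 0.012 with quantile normalization, 0.045 with normexp and -0.035 to 0.023 with a replicate left out, and Jun was -0.052 from the deposited values and -0.19 to 0.22 with a replicate left out. With Losartan at 3 h, Egr1 was 0.13 with the strict filter and 0.13 with the brightest probe, and without slides 1 and 2 Egr2 was 0.27 in Ang II x Control and with Losartan Egr2 was -0.18, Fosb 0.69, Jun 0.10 and Nr4a1 -0.034. Leaving out a replicate with Losartan at 3 h gave -0.095 to 0.18 for Egr2, -0.38 to 0.081 for Klf6 and -0.073 to 0.16 for Nr4a1. With Losartan at 6 h it gave -0.13 to 0.029 for Egr1, -0.10 to 0.024 for Ier2, -0.091 to 0.0070 for Klf6, -0.14 to 0.62 for Fosb and -0.028 to 0.072 for Jun. With PD123319 at 6 h, normexp gave 0.0061 for Egr2 and 0.0061 for Klf6.

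After adjustment 0 of the tested genes had a p under 0.05 in any setting. Over all genes in Ang II x Control at 6 h, 0 of 16446 did as reported, 69 of 14955 with the strict filter, 1 of 26582 with no filter, 10 of 13781 from the deposited values and 227 of 17169 without replicate 3. With PD123319 at 6 h, 4 did with no filter, 1 without replicate 1 and 2 without replicate 3, and at 3 h 2 did for Ang II x Control without slides 1 and 2.

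Counts of genes that passed moved more. In the order Ang II against Control, Losartan and PD123319, the main counts were 1503, 1374 and 360 at 3 h and 1885, 148 and 624 at 6 h. Without the replicate block they were 356, 341 and 62 at 3 h and 528, 35 and 113 at 6 h. The paired test gave 658, 136 and 149, then 731, 59 and 287. With normexp they were 882 and 175 at 3 h (Ang II x Control and PD123319), and 756, 18 and 157 at 6 h. The strict filter gave 78 with Losartan at 6 h, and no filter gave 837 with PD123319 at 3 h, 482 with Losartan at 6 h and 1277 with PD123319 at 6 h. Leaving out a replicate gave 753 to 1788, 213 to 1919 and 48 to 732 at 3 h, and 1233 to 2569, 158 to 435 and 364 to 1054 at 6 h. Slides 3 and 4 alone gave 581 with Losartan and 603 with PD123319 at 3 h. Signal over background limits Fos at both times.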
